A study of Mus musculus with 12 samples.

Results

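The genes described here flank Taar5, the gene inactivated in the mice of this study, on mouse chromosome 10. They were chosen by position alone, from every row of the count table that lay wholly within 10 Mb of Taar5 (GRCm39, chromosome 10, 13846604 to 33847617), with a normalized count (CPM, counts scaled to library size) of 0.5 or more on total counts in 3 or more of the 12 libraries. Of 365 rows in this window, 66 met the minimum and 299 did not, so the flanking genes were 66 of the 13902 features tested in the whole table. By biotype, 60 of the 101 protein-coding rows were tested, 3 of 94 long non-coding RNA rows, 3 of 26 TEC rows (transcribed regions not yet tested experimentally), and 0 of the 144 rows of other biotypes, and 68 rows had no count in any library. At the edge of the minimum, the third-highest CPM was 0.508 for Cenpw, which was included, and 0.498 for Gm47702, which was not.

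RNA came from the striatum, the input nucleus of the basal ganglia, of 6 TAAR5-KO mice and 6 wild-type (WT) littermates, all C57Bl/6 and 10 months old, with 3 males and 3 females of each genotype. The extent of the segment deleted in the TAAR5-KO line, and how many generations it had been crossed to C57Bl/6, are not given in the sources used here. The TAAR5-KO label covers libraries NK1 to NK6 and the WT label NK7 to NK12, and no label ties a library to an animal or a sex, so each was treated as 1 replicate. The comparison asks whether genes on the chromosome segment around the targeted locus differed between the genotype labels.

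Trace amine-associated receptors are G protein-coupled receptors that sense volatile and biogenic amines, and in mice their genes stand in 1 tandem cluster on chromosome 10. Apart from Taar1, they are known mainly as olfactory receptors, and TAAR5 responds to trimethylamine. The neighbours of the cluster have unrelated functions, among them vesicle fusion (Stx7), translation (Rps12), polyamine loading of vesicles (Slc18b1) and breakdown of extracellular ATP (Enpp1). Genes close to a targeted allele are seldom separated from it by recombination in a single generation.

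The 2 called genes nearest to Taar5 are given here by the promoter window of each (250 bases before to 50 after the transcription start, RefSeq sequence with GRCm38.p6 start sites, placed on GRCm39 by exact match), since they were called and lie within 1 Mb of the locus, as 6 uncalled genes also do. Capitals mark the GC box (GGGCGG on either strand), the motif bound by Sp1-family factors. The Slc18b1 window is chr10:23672634-23672933 on the plus strand, with 2 GC boxes and 51.7% G and C. The Enpp1 window is chr10:24588008-24588307 on the minus strand, with 1 GC box and 61.7% G and C.
Slc18b1: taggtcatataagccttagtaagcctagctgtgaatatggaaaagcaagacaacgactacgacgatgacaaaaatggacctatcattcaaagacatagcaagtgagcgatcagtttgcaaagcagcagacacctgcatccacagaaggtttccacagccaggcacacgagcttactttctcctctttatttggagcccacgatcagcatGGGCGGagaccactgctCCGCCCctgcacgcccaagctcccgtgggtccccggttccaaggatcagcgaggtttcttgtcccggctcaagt
Enpp1: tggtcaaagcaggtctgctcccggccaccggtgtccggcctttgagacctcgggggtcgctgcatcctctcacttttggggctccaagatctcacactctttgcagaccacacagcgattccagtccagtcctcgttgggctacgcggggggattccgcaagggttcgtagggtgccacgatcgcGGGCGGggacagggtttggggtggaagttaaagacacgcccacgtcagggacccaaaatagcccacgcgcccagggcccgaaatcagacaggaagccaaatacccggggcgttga
Promoter windows were matched for 55 of the 66 flanking genes, and 37 of these (67.3%) held a GC box, beside 36.2% of 26735 RefSeq promoters. A CCAAT box (CCAAT) was in 32.7% of the matched windows and in 37.9% of all, a TATA box (TATAAA) in 7.27% and 14.1%, the cAMP response element core (TGACGTCA) in 5.45% and 1.89%, and an E-box (CACGTG) in 5.45% and 7.26%, each searched on both strands. Neither printed window held any of these other motifs. Median G and C content was 60.7% in the matched windows and 52.7% in all RefSeq windows. The flanking genes were filtered for expression in the striatum and the RefSeq set was not, so the shares describe the windows only, and a match is not evidence of binding.

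Taar5 itself (ENSMUSG00000069706.4, chromosome 10, 23846604 to 23847617) was counted against its labels. The 6 libraries labelled TAAR5-KO held 2, 3, 2, 1, 2 and 6 counts, 16 in sum, and the 6 libraries labelled WT held 0, 1, 0, 0, 2 and 0, 3 in sum. On TMM library sizes, which correct for differences in library composition, these were 0.142 ± 0.0618 CPM and 0.0224 ± 0.0382 CPM (SD, n = 6 each; two-sided exact permutation test, p = 0.00649, where 0.00216 is the smallest possible). Groups are therefore given as labels throughout, and no direction below is secured by the targeted gene. The other 15 rows of the Taar family, 14 receptor genes and the pseudogene Taar7c-ps, held 24 counts in libraries labelled TAAR5-KO and 19 in libraries labelled WT, never more than 3 in a library, and none reached the minimum for testing. Taar6, the next gene after Taar5, had 2, 1, 0, 1, 1 and 0 counts in libraries labelled TAAR5-KO and none in those labelled WT, and Taar8b had none in any library. At this depth the other receptors of the cluster could not be compared.

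Total counts were 11269915 to 34824450 per library, but 65.8% to 90.2% of them fell on ribosomal RNA features (counted with Lars2), and the 66 flanking genes together received 2912 to 15811 counts per library. A count of 0 allows up to 3 counts, or 0.0679 to 0.362 CPM depending on the library, for counting error only. Markers of the dissected tissue were present in every library, with summed levels of 9 spiny neuron genes of 333 to 431 CPM in libraries labelled TAAR5-KO and 196 to 370 CPM in those labelled WT. Some libraries stood apart in tissue content. Choroid plexus markers summed to 456 CPM in NK4 and to 109 to 278 CPM in NK5, NK7, NK8, NK9, NK10 and NK11. They summed to at most 6.50 CPM in NK1, NK2, NK3, NK6 and NK12. Of these low libraries only NK12 was labelled WT, so choroid plexus content was unequal between the labels. Pituitary markers reached 55.8 CPM in NK11, 16.4 in NK10 and 13.6 in NK12, all labelled WT, against at most 5.21 elsewhere.

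Of the 66 flanking genes, 3 were past an adjusted p of 0.1 by the likelihood ratio test of edgeR (Benjamini-Hochberg adjustment over all 13902 features), all lower in libraries labelled TAAR5-KO, and 2 of these were within 1 Mb of Taar5. They were Slc18b1, Enpp1 and, farther away, Nhsl1. The share called was 4.55%, beside 1.65% of all features tested and 1.68% (10 of 597) of the features on chromosome 10 outside the window. Lower calls were 0.691% and higher calls 0.957% of all features. By the quasi-likelihood test, which allows for uncertainty in each gene's dispersion, 0 of the 66 were called and 0.453% of all features. DESeq2 called 1, Nhsl1, beside 1.27% of all features. It gave no adjusted p for 35 of the 66, Enpp1 and Slc18b1 among them, and for 7009 of the 13902 features. At an unadjusted p under 0.05, the likelihood ratio test gave 9 of the 66 (13.6%, 6 lower and 3 higher), close to the 11.9% of all features.

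Most fold changes in the window were small. The log2 fold change (log2FC, TAAR5-KO label over WT label) was smaller than 0.25 in either direction for 50 of the 66, positive for 37 and negative for 29. Its median was 0.03 over the flanking genes and −0.0061 over all features. In the plot of fold change by distance, the intervals of the 3 called genes lie below the line and those of most others cross it. The size of the log2FC alone does not set the called genes apart. The uncalled Samd3 (−1.19) and Hebp2 (−0.79) were more negative than Slc18b1 (−0.58) and Nhsl1 (−0.48). The intervals of the uncalled Samd3 (−2.08 to −0.31) and Epb41l2 (−0.35 to −0.06) also lie below the line. Those of the uncalled Pde7b (0.02 to 0.46) and Ncoa7 (0.02 to 0.34) lie above it.

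**Figure D1:**
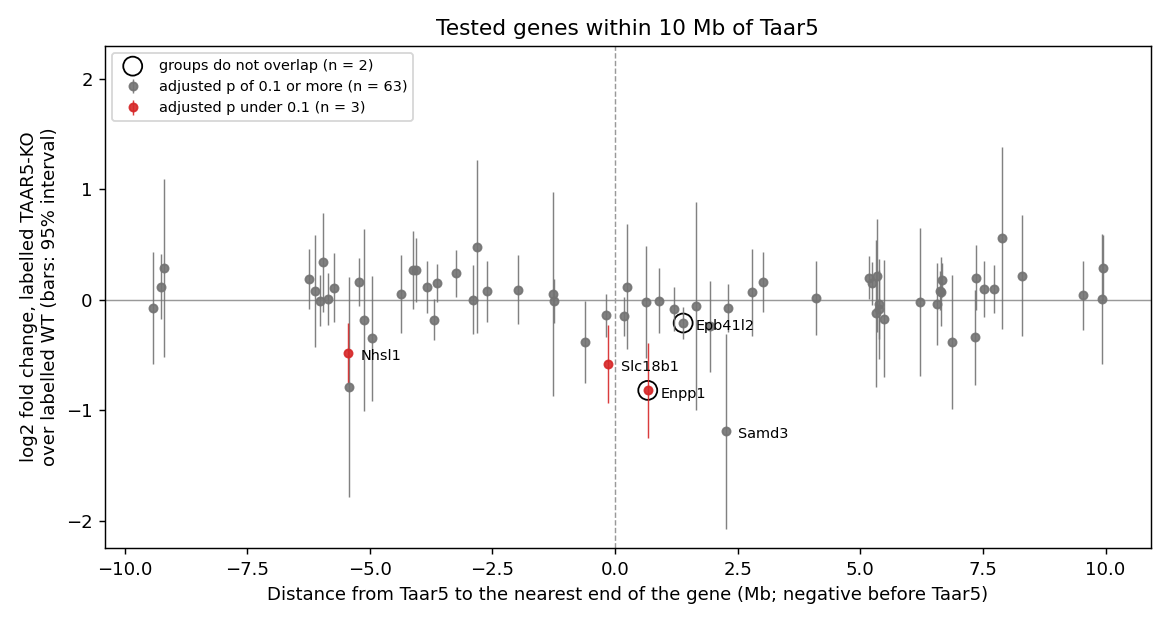
Log2FC between the labels (TAAR5-KO over WT, y axis) of the 66 tested genes against the distance of their nearest end from Taar5 in Mb (x axis, negative before Taar5), with 95% intervals as bars. Called genes are red (n = 3), and circles mark the 2 genes whose libraries did not overlap between labels; 7 of the 8 genes within 1 Mb lie below 0, of which Ccn2 and Med23 lie above it under other settings.

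By distance, negative values were most frequent nearest to Taar5. Over all features, 51.1% of values were negative and 1.65% were called. On chromosome 10 outside the window, the shares were 51.8% and 1.68%. Within 1 Mb, 7 of 8 genes had a negative log2FC, 2 were called and the median was −0.14, although the signs of Ccn2, Med23 and Moxd1 turned under other settings. From 1 to 2 Mb, 5 of 7 were negative, 0 were called and the median was −0.05. From 2 to 5 Mb, 4 of 16 were negative, 0 were called and the median was 0.07, and beyond 5 Mb, 13 of 35 were negative, 1 was called and the median was 0.08. On the side before Taar5, 2 of 30 genes were called, and on the side after it, 1 of 36. These bins are small and neighbouring genes share the same 12 libraries, so the order of the bins was not tested.

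Slc18b1 (ENSMUSG00000037455.18, 23672884 to 23703866, plus strand), 0.143 Mb before Taar5, encodes a vesicular transporter of polyamines and is the nearest tested gene. Its lowest, median and highest values were 1.18, 1.71 and 1.88 CPM in libraries labelled TAAR5-KO and 1.45, 2.42 and 3.18 CPM in those labelled WT. Of the libraries labelled WT, 5 lay above every library labelled TAAR5-KO, and the groups overlapped through NK10 at 1.45 CPM. The means were 1.61 ± 0.302 and 2.40 ± 0.636 CPM (SD, n = 6 each), a log2FC of −0.58 (SE 0.18, adjusted p = 0.0963, edgeR likelihood ratio test; 0.195 by the quasi-likelihood test). This rested on 12 to 104 counts per library, and DESeq2 gave no adjusted p. The call was lost on leaving out NK1, NK2, NK3, NK5, NK7, NK9, NK11 or NK12 (log2FC −0.66 to −0.49 over all 12 omissions, adjusted p 0.0547 to 0.285).

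Enpp1 (ENSMUSG00000037370.14, 24513812 to 24588057, minus strand), 0.666 Mb after Taar5, encodes a cell-surface pyrophosphatase that splits extracellular ATP into AMP and pyrophosphate, and is best known for restraining mineralization. Libraries labelled TAAR5-KO had 0.406, 0.762 and 0.868 CPM (lowest, median, highest) and libraries labelled WT had 0.973, 1.27 and 1.53 CPM, without overlap. The means were 0.681 ± 0.182 and 1.26 ± 0.198 CPM (SD, n = 6 each), and the log2FC was −0.82 (SE 0.22, adjusted p = 0.0304, edgeR likelihood ratio test; 0.115 by the quasi-likelihood test). Counts were low, 5 to 43 per library, and DESeq2 gave no adjusted p. The call held on leaving out 9 of the 12 libraries in turn and was lost without NK3, NK7 or NK11 (adjusted p 0.112, 0.116 and 0.117), with a log2FC between −0.92 and −0.72 throughout.

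Nhsl1 (ENSMUSG00000039835.17, 18194733 to 18409640, plus strand), 5.44 Mb before Taar5, belongs to the family of the Nance-Horan syndrome protein, regulators of actin at the cell edge. Its values were 2.99, 3.63 and 4.90 CPM (lowest, median, highest) in libraries labelled TAAR5-KO and 4.27, 5.57 and 6.61 CPM in those labelled WT, with 4 libraries of each label beyond the range of the other. The means were 3.90 ± 0.741 and 5.44 ± 0.900 CPM (SD, n = 6 each), the log2FC was −0.48 (SE 0.14), and the adjusted p was 0.0662 by the likelihood ratio test, 0.161 by the quasi-likelihood test and 0.067 by DESeq2. The call held only on leaving out NK4, NK5, NK8 or NK9 (adjusted p 0.0212 to 0.249 over all 12 omissions).

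Epb41l2 (ENSMUSG00000019978.17, 25235696 to 25399417, plus strand), 1.39 Mb after Taar5, encodes protein 4.1G, which ties membrane proteins to the spectrin and actin skeleton. It had 16.3, 16.9 and 17.8 CPM (lowest, median, highest) in libraries labelled TAAR5-KO and 18.8, 19.7 and 20.9 CPM in those labelled WT, so its groups did not overlap either. The log2FC of −0.21 (SE 0.0752) was small and not past the threshold (adjusted p = 0.177, edgeR likelihood ratio test). Enpp1 and Epb41l2 were the 2 flanking genes (3.03%) without overlap between labels, beside 1.01% of all features, and 0.388% in the lower direction. Their spread among libraries was very different, with a coefficient of variation over the 12 libraries of 8.48% for Epb41l2, the lowest in the window, and 36.3% for Enpp1.

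**Figure D2:**
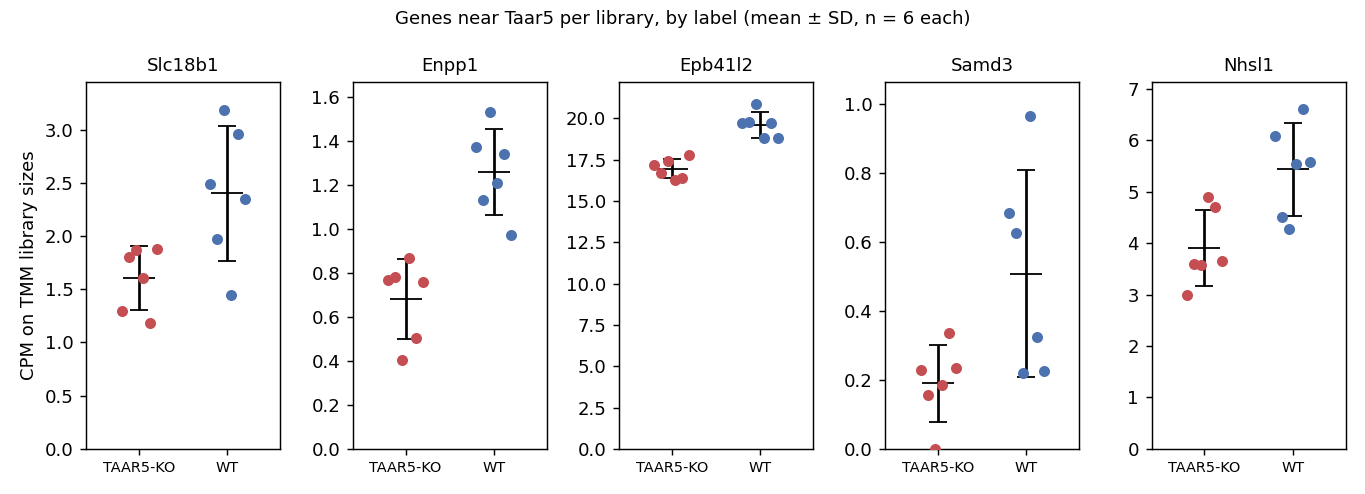
CPM on TMM library sizes (y axes, each from 0) of Slc18b1, Enpp1, Epb41l2, Samd3 and Nhsl1 in each library, by label (x axis); points are libraries and bars the mean ± SD (n = 6 each). Enpp1 (0.406 to 0.868 against 0.973 to 1.53 CPM) and Epb41l2 (16.3 to 17.8 against 18.8 to 20.9 CPM) do not overlap between labels, and the other genes do.

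None of these 4 genes has exons that overlap those of another annotated gene. Levels in whole tissue do not tell fewer cells of a type from less RNA per cell. The summed level of 4 astrocyte markers was 169 to 218 CPM in libraries labelled TAAR5-KO and 218 to 258 CPM in those labelled WT, with 1 of the 4 called lower (Gja1), and that of 4 microglia markers was 15.3 to 23.2 and 20.9 to 29.1 CPM, also with 1 of 4 called lower. Oligodendrocyte markers summed to 367 to 412 and 317 to 467 CPM with 0 of 4 called, and endothelial markers to 3.57 to 5.40 and 3.29 to 4.44 CPM with 0 of 4 called. No gene of these lists was at 0 in all libraries. Over all features, 0.691% were called lower. Among the other marker lists, the only calls were Hbb-bt (blood, higher) and Gh (pituitary, lower). The part of glial content in the lower values of Slc18b1, Enpp1, Nhsl1 and Epb41l2 was not tested. Without NK4, NK10, NK11 and NK12, the library with the highest choroid plexus markers and the 3 with the highest pituitary markers, Enpp1 stayed called (log2FC −0.99, adjusted p = 0.0574, edgeR likelihood ratio test) and Slc18b1 and Nhsl1 did not. With NK10 kept, Enpp1 was called again, and Samd3 (lower) and Arfgef3 (higher) also came past the threshold. Of all features fitted, 1.78% were called with NK10 kept, and 0.80% without all 4. After the omission of all 4, libraries labelled TAAR5-KO had choroid plexus markers of 1.23, 1.64, 3.08, 6.50 and 174 CPM. Those labelled WT had 109, 200 and 278 CPM, so choroid plexus content was not evened out between the labels.

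The other genes within 1 Mb of Taar5 were not called. Stx7, a syntaxin of late endosomes 0.178 Mb after Taar5, had 10.6, 11.8 and 13.2 CPM (lowest, median, highest) in libraries labelled TAAR5-KO and 11.0, 13.3 and 14.0 CPM in those labelled WT (log2FC −0.15, SE 0.0898, adjusted p = 0.532, edgeR likelihood ratio test). Rps12, a protein of the small ribosomal subunit 0.183 Mb before Taar5, had 6.98, 8.03 and 10.4 CPM against 8.37, 8.96 and 10.4 CPM (−0.14, SE 0.10, adjusted p = 0.637, edgeR), and 13.7% of its exon length overlaps other annotated genes, while 24 rows of the table are named as its copies. Eya4, a transcriptional coactivator and phosphatase 0.62 Mb before Taar5, had 0.919, 1.19 and 1.41 CPM against 1.21, 1.44 and 1.92 CPM (−0.38, SE 0.19, adjusted p = 0.418, edgeR). The groups overlapped for each of these 3 genes.

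Moxd1, a monooxygenase related to dopamine beta-hydroxylase at 0.252 Mb after Taar5, was the only gene within 1 Mb with a positive log2FC (0.12, SE 0.29), a sign that turned to −0.026 with the ribosomal RNA share as a covariate. The connective tissue growth factor gene Ccn2 had a log2FC of −0.02 (SE 0.26) at 0.624 Mb and the Mediator subunit gene Med23 one of −0.0059 (SE 0.15) at 0.898 Mb, both turning positive under other settings. Their intervals, −0.45 to 0.69 for Moxd1, −0.53 to 0.49 for Ccn2 and −0.31 to 0.30 for Med23, leave room for differences in either direction.

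From 1 to 3 Mb, Akap7, an anchor of protein kinase A, had −0.08 (SE 0.10), and the TBP-related factor Tbpl1 had −0.01 (SE 0.10) with a sign that turned under other settings. Gm36908, a long non-coding RNA gene at 1.64 Mb, had −0.05 (SE 0.48) on 1 to 16 counts per library, likewise with a sign that turned. The glucocorticoid-induced kinase gene Sgk1 had 0.09 (SE 0.16), the ribosome rescue factor gene Hbs1l 0.08 (SE 0.14) and Myb 0.48 (SE 0.40) on 1 to 28 counts per library. Samd3, 2.26 Mb after Taar5, had the most negative value of the window, −1.19 (SE 0.45, adjusted p = 0.178, edgeR likelihood ratio test). It reached the minimum for testing in 5 libraries, NK5 labelled TAAR5-KO and NK7, NK8, NK10 and NK12 labelled WT. Samd3 was thus tested only through the label where it was higher. Its libraries labelled TAAR5-KO held 0, 0.208 and 0.336 CPM (lowest, median, highest) and those labelled WT 0.219, 0.475 and 0.965 CPM, at most 9 and 19 counts. At 3 counts or fewer in 4 of the 6 libraries labelled TAAR5-KO, it was near the limit of detection, and it was called when NK12 was left out (adjusted p = 0.0659, edgeR).

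The most positive values of the window did not pass the test. Gm47704, a TEC feature, had 0.56 (SE 0.42), Abracl 0.34 (SE 0.23), Nmbr, the neuromedin B receptor gene, 0.29 (SE 0.41), and Zup1, a ubiquitin-chain protease gene, 0.29 (SE 0.15, adjusted p = 0.414, edgeR). At the negative end, Hebp2, a heme-binding protein gene, had −0.79 (SE 0.51, adjusted p = 0.558, edgeR), with 3 counts or fewer in 4 libraries labelled TAAR5-KO.

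Among the role lists, signalling genes gave 0 calls from 10 tested of 12 in the window, with 7 positive and 3 negative values. Over all features 1.65% were called, so 0 calls in lists of this size says little. Pde7b, a cyclic AMP phosphodiesterase that is abundant in striatum, had 21.2, 23.9 and 24.5 CPM (lowest, median, highest) in libraries labelled TAAR5-KO and 13.1, 20.6 and 22.5 CPM in those labelled WT. Although 5 libraries labelled TAAR5-KO lay above all of those labelled WT, its log2FC of 0.24 (SE 0.11) had an adjusted p of 0.363 by the edgeR likelihood ratio test. The lowest value, 13.1 CPM, was in NK11, the library with the lowest summed spiny neuron markers (196 CPM) and the highest pituitary markers, and the part of these in the difference was not tested. Tnfaip3, the A20 brake on NF-kappaB signalling, had −0.35 (SE 0.29), and Map3k5, a stress-activated kinase, 0.12 (SE 0.12). Of this list, Il20ra and Il22ra2 were below the minimum.

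Genes of membrane traffic and cilia were all tested (6 of 6) and gave 0 calls. Ahi1, a Joubert syndrome gene of the primary cilium, had 32.3 to 58.8 CPM in libraries labelled TAAR5-KO and 33.1 to 59.4 CPM in those labelled WT, with a log2FC of 0.0012 (SE 0.16) whose sign changed with the setting. Arfgef3 had 36.0 to 49.1 and 35.2 to 47.1 CPM (0.16, SE 0.11), Vta1, an ESCRT cofactor, 0.12 (SE 0.15) and Clvs2, a clathrin-vesicle protein, 0.04 (SE 0.16), with a sign that also turned. Genes of transcription and chromatin gave 0 calls from 8 tested of 10 in the window, with Bclaf1 at 0.15 (SE 0.0877) and Cited2 at 0.19 (SE 0.14), while Tcf21 and Olig3 were below the minimum.

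Genes of matrix, secretion, cell surface and transport held both called genes near Taar5. Of 12 tested of 15 in the window, 2 were called lower (Enpp1 and Slc18b1), beside 0.691% of all features. In this list 5 values were positive and 7 negative, with a median of −0.09. The list is broad and was chosen with earlier results of these data known, so its 2 calls are not a result about a class of genes. Slc35d3, a transporter of the secretory pathway, had 0.27 (SE 0.18), and Enpp3, next to Enpp1, and Vnn1 and Vnn3, between Slc18b1 and the Taar cluster, were below the minimum. Genes of translation, RNA and ubiquitin gave 0 calls from 5 tested (Rnf217, a ubiquitin ligase gene, at 0.10, SE 0.13, and −0.025 with the GC trend removed), those of peroxisome and metabolism 0 from 3 (Pex7, an import receptor of peroxisomes, at 0.27, SE 0.15, and Hddc2 at −0.34, SE 0.22), and the muscle list had 1 tested, Txlnb, at 0.08 (SE 0.26), a sign that turned when libraries were left out. A further 21 tested genes were in no list, among them Nhsl1 and Samd3. One of them, Ncoa7, was picked out after its values were seen: it had 15.5 to 18.7 CPM in libraries labelled TAAR5-KO and 14.4 to 15.6 CPM in those labelled WT, with 5 of 6 libraries of each label outside the range of the other, and a log2FC of 0.18 (SE 0.0798, adjusted p = 0.322, edgeR likelihood ratio test).

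**Figure D3:**
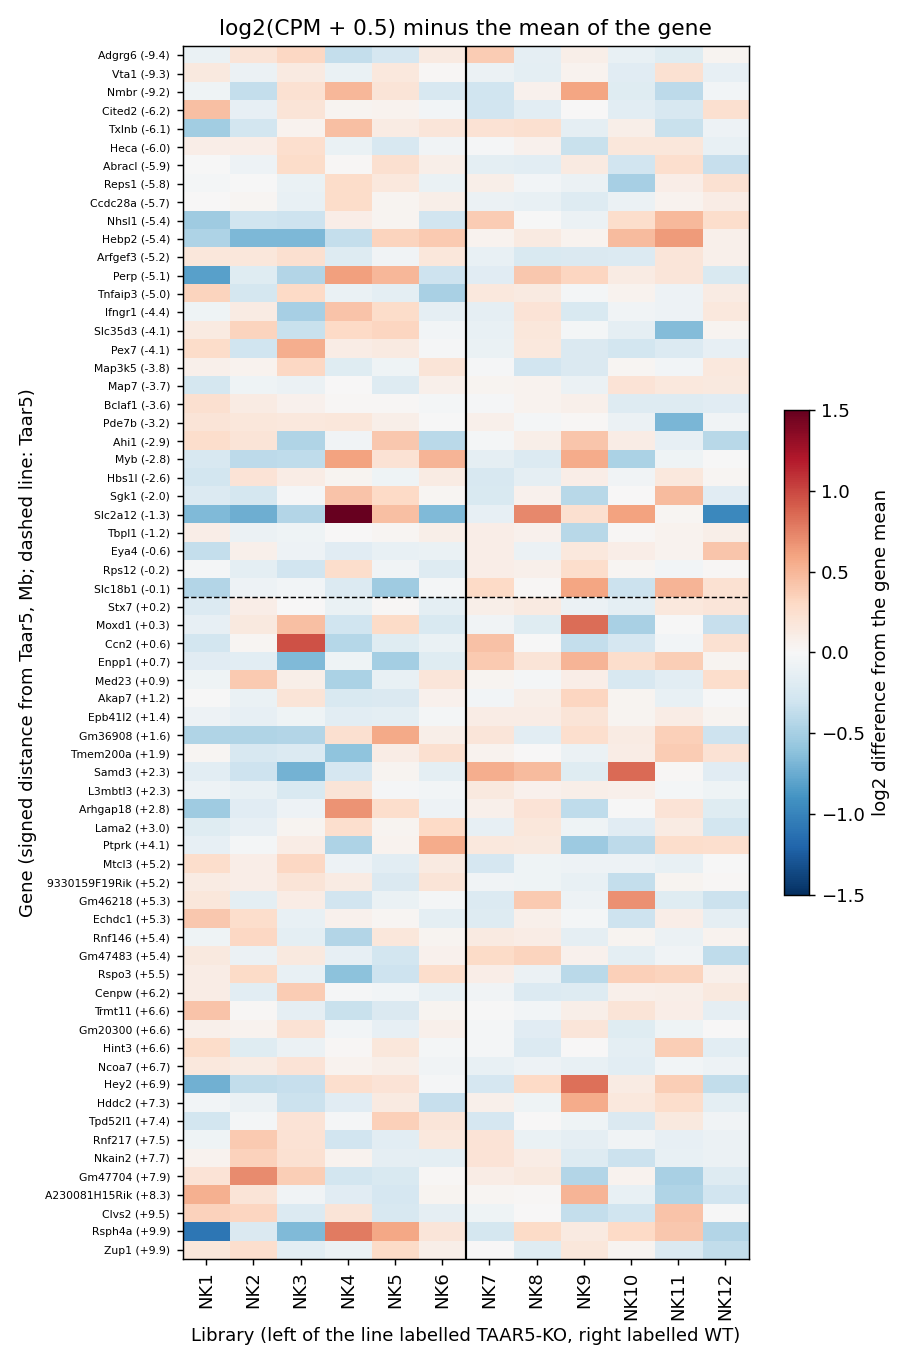
Log2(CPM + 0.5) of each of the 66 tested genes minus its mean over 12 libraries (colour, red above and blue below the mean), with genes in chromosomal order (rows, distance from Taar5 in Mb in brackets) and libraries in columns, those labelled TAAR5-KO left of the line. Enpp1 and Epb41l2 are below their mean in all 6 libraries labelled TAAR5-KO, and the strongest single cell is Slc2a12 in NK4 (5.33 CPM).

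For 2 genes of the window, the libraries high in the gene were those high in markers of other tissue. Slc2a12, the glucose transporter GLUT12, 1.27 Mb before Taar5, had 0.704, 0.87 and 5.33 CPM (lowest, median, highest) in libraries labelled TAAR5-KO and 0.521, 1.69 and 2.80 CPM in those labelled WT. Of its exon length, 9.61% overlaps Tbpl1 on the opposite strand, and the strand setting of the counting was not stated. For Tbpl1, 16.4% of the exon length overlaps other annotated genes, Slc2a12 among them. The 5 libraries with choroid plexus markers of at most 6.50 CPM had Slc2a12 at 0.521 to 0.974 CPM, and the 7 others had 1.33 to 5.33 CPM, highest in NK4, where the markers reached 456 CPM. Its log2FC was 0.05 (SE 0.47) with all libraries and −0.85 without NK4, NK10, NK11 and NK12 (adjusted p = 0.377, edgeR). The libraries then kept had choroid plexus markers of 1.23 to 174 CPM with the TAAR5-KO label and 109 to 278 CPM with the WT label. Rsph4a, a radial spoke protein of motile cilia at 9.93 Mb after Taar5 and also picked out after its values were seen, ranged from 0.843 CPM in NK1 to 4.40 CPM in NK4, the libraries with the lowest (1.61 CPM) and highest (10.9 CPM) summed ependyma markers. Its log2FC was 0.01 (SE 0.30), and −0.17 without the same 4 libraries. Both relations are descriptions over 12 libraries, and the part of choroid plexus or ependyma content in these values was not tested.

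**Figure D4:**
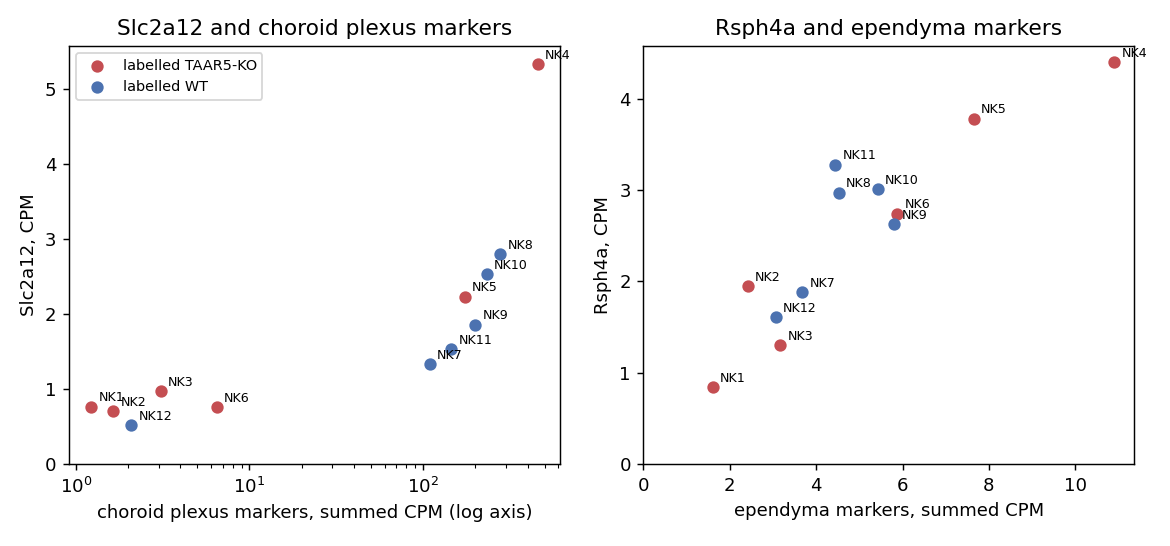
Left, Slc2a12 in CPM (y axis) against the summed CPM of 4 choroid plexus markers (log x axis), and right, Rsph4a in CPM against the summed CPM of 3 ependyma markers; each point is a library, coloured by label. NK4 is highest on both axes of both panels (5.33 and 456 CPM left, 4.40 and 10.9 CPM right).

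Levels per length, in CPM per kb of merged exons over the 12 libraries, differed by over 2 orders of magnitude. Ahi1 was highest at 6.42 ± 1.33 (SD, n = 12), followed by Rps12 at 4.28 ± 0.517, the long non-coding RNA Gm20300 at 3.45 ± 0.320, Arfgef3 at 2.86 ± 0.372 and Stx7 at 2.75 ± 0.267, and of these the neighbours Arfgef3 and Stx7 did not differ beyond their spread. Gm20300 had a log2FC of 0.08 (SE 0.0902), which turned to −0.06 once the trend of each library on GC content was removed. Of the genes lower in libraries labelled TAAR5-KO, Epb41l2 stood at 1.54 ± 0.131, Slc18b1 at 0.616 ± 0.194, Nhsl1 at 0.412 ± 0.0989 and Enpp1 at 0.0945 ± 0.0343, and the lowest level of all was that of Myb at 0.0439 ± 0.0279. Echdc1 and Rnf146 overlap each other on opposite strands over most of their exons (86.4% and 76.8% of the length overlaps another gene), and since the strand setting of the counting was not stated, their values (0.22, SE 0.26, and −0.04, SE 0.16) cannot be told apart.

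**Figure D5:**
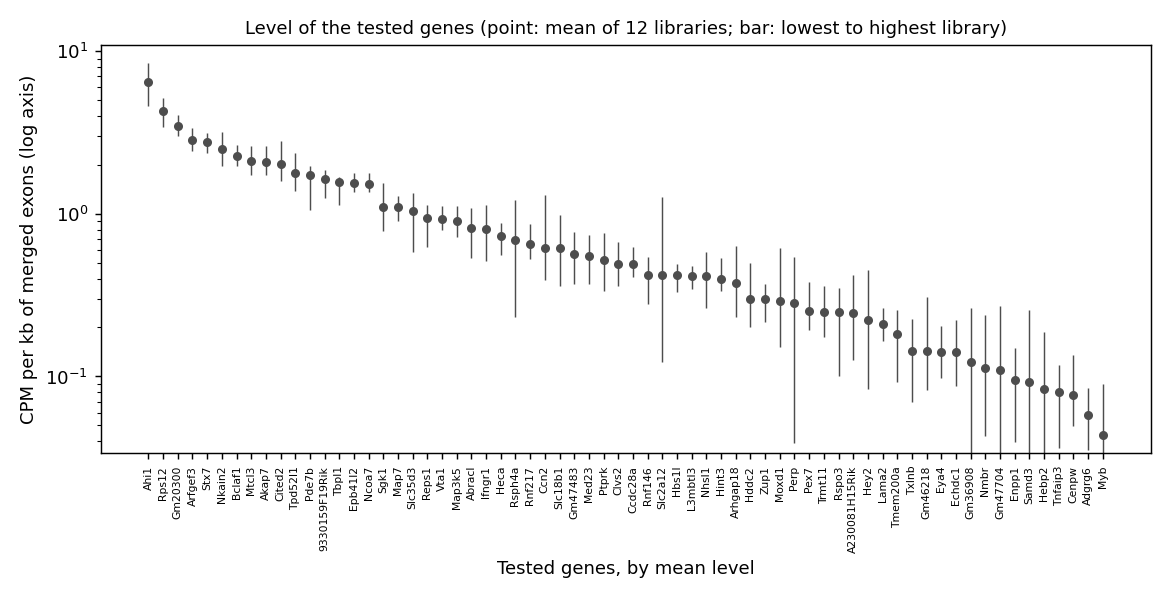
Level of each of the 66 tested genes in CPM per kb of merged exons (log y axis), ordered by mean over 12 libraries (points), with bars from the lowest to the highest library; bars that reach the axis go to 0 or below its lower end. Ahi1 is highest at 6.42 and Myb lowest at 0.0439.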

How the data were processed

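The authors started from total RNA freed of ribosomal RNA, with directional libraries and single-end reads of 100 bases. Trimming used cutadapt 4.1, alignment to GRCm39 used STAR 2.7.11b, and counting used featureCounts 2.0.6 on GENCODE M35. The sample labels give the molecule as polyA RNA, whereas the protocol describes depletion. The deposited values are whole-number counts for 57132 features, neither normalized nor pooled. How featureCounts was set for strand and for reads with several matches is not given in the sources used here, so overlapping genes and near-identical copies are uncertain. A further 12 columns of counts were not used. Columns name a genotype but no animal, so libraries were replicates of their label, and p-values measure the spread between these libraries.

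From the counts, the analysis was computed anew with R 4.3.3 and edgeR 4.0.16: TMM factors, estimateDisp, glmFit and glmLRT without covariates, on every feature that reached 0.5 CPM on total counts in 3 or more libraries, with a threshold of 0.1 on the p adjusted by Benjamini and Hochberg. Standard errors came from the same fit, and intervals are at 95%. The window, role lists and marker lists were chosen with earlier results of these data known. Named genes were those called, those without overlap between labels, the 8 nearest on each side, the 5 highest and 5 lowest log2 fold changes, the 5 highest levels per kb, the Taar genes, and up to 4 examples per role list by smallest p. All marker lists were computed: sums over cortical pyramidal neuron markers were 23.0 to 87.6 CPM in libraries labelled TAAR5-KO and 30.2 to 95.8 CPM in those labelled WT, over blood 6.40 to 17.1 and 5.15 to 13.7, over leptomeninges and fibroblasts 3.17 to 7.26 and 3.51 to 7.90, and over oligodendrocyte precursors 6.34 to 8.83 and 7.48 to 10.3.

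Alternatives were the quasi-likelihood test, DESeq2 1.42.0, library size as the only scaling, RLE size factors, filterByExpr, no filter, the CPM filter on TMM library sizes, removal of ribosomal RNA features with Lars2, an adjusted p under 0.05, the ribosomal RNA share as a covariate, windows of 1 and 5 Mb, and each library left out in turn. A loess correction of the GC trend in each library (span 0.5) and the omission of NK4, NK11 and NK12, with or without NK10, were chosen after seeing the data. GC content and biotype came from GENCODE M39 on GRCm39, and GC content was known for 13871 of the 13902 features (99.8%). Statistics were tested on simulated data with known changes.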

Additional observations from a re-analysis of the deposited data

Results flagged for a closer look

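In 8 of the 84 groups of 6 libraries examined (42 genes by 2 labels), 1 library lay farther from the other 5 than Dixon's 95% criterion allows, and chance gives about 1 such group in 20. The connective tissue growth factor gene Ccn2 had 3.73 CPM in NK3, labelled TAAR5-KO, on 46 counts, where the other 5 libraries of that label had 1.12 to 1.72 CPM. Slc2a12, the glucose transporter gene, had 5.33 CPM in NK4, labelled TAAR5-KO, on 86 counts, against 0.704 to 2.23 CPM, and NK4 was also the library with the highest choroid plexus markers (456 CPM). All other such libraries were labelled WT. In NK9, Moxd1 had 1.97 CPM (18 counts) against 0.482 to 0.878 CPM, Myb had 0.767 CPM on 7 counts against 0.121 to 0.362 CPM, and Tbpl1 had 3.72 CPM on 34 counts against 5.19 to 5.52 CPM. The phosphodiesterase gene Pde7b had 13.1 CPM in NK11 on 284 counts against 20.1 to 22.5 CPM, and NK11 was also the library with the lowest spiny neuron markers (196 CPM). Pex7 had 3.43 CPM in NK8 on 82 counts against 2.41 to 2.78 CPM, and Rnf217 had 8.29 CPM in NK7 on 230 counts against 6.46 to 6.87 CPM. None of these genes was called between the labels.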

How the results depend on the processing

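The number of flanking genes called, 3 with the likelihood ratio test and all lower in libraries labelled TAAR5-KO, was 0 with the quasi-likelihood test, 0 with library size as the only scaling, and 1 with DESeq2 (Nhsl1; the adjusted p was missing for 35 of the 66), with an adjusted p under 0.05 (Enpp1), with the ribosomal RNA share as a covariate (Enpp1), with the GC trend of each library removed (Enpp1), with NK4, NK10, NK11 and NK12 left out (Enpp1) and with no filter (Gm34267). The share of all features called also changed, from 1.65% to 0.453% (quasi-likelihood), 0.0504% (library size only) and 1.27% (DESeq2). It was 0.777% at an adjusted p under 0.05, 0.719% with the ribosomal RNA covariate and 0.856% with the GC trend removed. Without NK4, NK10, NK11 and NK12 it was 0.80%, and with no filter 0.213%. On leaving out single libraries, the flanking genes called numbered 0 to 3, and 0 without NK3, NK7 or NK11 (0.985%, 0.753% and 0.616% of all features). They numbered 1 without NK1 or NK2 (0.82% of all features each). Without NK5, NK6, NK9, NK10 or NK12 they numbered 2 (1.0% to 2.37% of all features). The 3 calls remained without NK4 or NK8 (3.0% and 1.63% of all features). Higher calls numbered 0, and 1 (Arfgef3) without NK4, NK11 and NK12. In that setting 3 flanking genes were called, beside 1.78% of all features. Calls of 3 with the same names came from RLE size factors, filterByExpr, the CPM filter on TMM library sizes and removal of ribosomal RNA features. These settings called 1.63% to 1.79% of all features. The share called was 4.55% in the window, 6.45% within 5 Mb and 25.0% (2 of 8) within 1 Mb, beside 1.65% of all features. Genes without overlap between labels numbered 2, beside 1.01% of all features. With library size as the only scaling they numbered 0, and the share over all features was not computed. On leaving out single libraries they numbered 2 to 4, beside 1.22% to 2.06% of all features. The 4 came without NK6, beside 1.46% of all features. The median log2 fold change of the flanking genes was 0.0158 to 0.0748 over those omissions, and −0.0091 with the GC trend removed. The cause of these changes was not tested.

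Library size as the only scaling moved the median of all features by −0.49 on the log2 scale, and values under it are relative to that median. Among the 42 named genes, signs turned for genes whose log2 fold change was at most 0.12 in size. With the ribosomal RNA share as a covariate, Ahi1 turned to −0.0602, Ccn2 to 0.068, Gm36908 to 0.0229, Med23 to 0.0358, Moxd1 to −0.026, Rnf146 to 0.00167, Slc2a12 to −0.00632 and Tbpl1 to 0.0417. With the GC trend removed, Ahi1 turned to −0.00652, Ccn2 to 0.0288, Clvs2 to −0.0245, Gm20300 to −0.0629, Rnf217 to −0.025 and Rsph4a to −0.0243. Without NK4, NK11 and NK12, Ahi1 turned to −0.12, Ccn2 to 0.11, Med23 to 0.12, Rsph4a to −0.23, Slc2a12 to −0.93, Tbpl1 to 0.0255 and Txlnb to −0.25. With NK10 left out as well, Ahi1 was −0.13, Ccn2 0.0302, Med23 0.0813, Moxd1 −0.0901, Rsph4a −0.17, Slc2a12 −0.85, Tbpl1 0.032 and Txlnb −0.27. Gm36908 was 0.0565 with the quasi-likelihood test and 0.28 on library size, Clvs2 was −0.0448 on library size, Med23 was 0.00158 with DESeq2, and Ahi1 was −0.00602 without a filter and −0.000172 with the CPM filter on TMM library sizes. On leaving out single libraries, values ran from −0.0887 to 0.10 for Ahi1, −0.35 to 0.11 for Ccn2, −0.0227 to 0.15 for Clvs2, −0.45 to 0.15 for Gm36908, −0.0801 to 0.0789 for Med23, −0.0112 to 0.36 for Moxd1, −0.0958 to 0.0434 for Rnf146, −0.20 to 0.19 for Rsph4a, −0.63 to 0.25 for Slc2a12, −0.0446 to 0.0152 for Tbpl1 and −0.0435 to 0.20 for Txlnb.

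No paired analysis was possible because the columns carry no animal number, so the numbers that the labels give to both genotypes could not be assigned to libraries. Depth limits the genes under about 20 counts per library, among them Enpp1, Samd3, Hebp2 and the Taar cluster.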

Other observations

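Gm34267 (ENSMUSG00000120118.1), a long non-coding RNA gene on chromosome 10 from 21930283 to 21934566, 1.91 Mb before Taar5, was below the minimum level for testing and was chosen after its values were seen. It had 1, 1, 0, 0, 1 and 2 counts in the 6 libraries labelled TAAR5-KO, 5 in sum, and 7, 3, 4, 3, 5 and 8 counts in the 6 libraries labelled WT, 30 in sum. Fitted without a filter on low counts, its log2 fold change was −2.27 (adjusted p = 0.0514, edgeR likelihood ratio test). It was then the 1 gene called among the 297 rows of the window with a count, beside 0.213% of all 43668 features fitted. With at most 2 counts in a library labelled TAAR5-KO, the size of the difference depends on the prior count of the fit.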
